A study of Mus musculus with 14 samples.

Results

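The chromatin of control mouse regulatory T cells was compared between 2 histone marks, acetylation (H3K27ac) and trimethylation (H3K27me3) of the same lysine, using 5 of the 14 samples of the series. These were the 3 H3K27ac and the 2 H3K27me3 peak lists of the control chimeras, chosen by sample label, and the comparison covered chromosomes 1 to 19. The marks were mapped by CUT&Tag, a method that guides a DNA-cutting transposase to the mark with an antibody and sequences the fragments released there. The cells were sorted by FACS from mice labelled Foxp3YFPcre;wt, in which Cre is tied to Foxp3, the gene that defines regulatory T cells. The labels call these mice chimeras and do not explain the second part of their name. H3K27ac controls 1, 2 and 3 came from chimeras 2, 3 and 4, and H3K27me3 controls 1 and 2 came from chimeras 1 and 2, so that only chimera 2 gave both marks.

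H3K27ac is written by the acetyltransferases p300 and CBP at active promoters and enhancers, and clusters of strong enhancers in a cell type are often called super-enhancers. H3K27me3 is written by Polycomb repressive complex 2, whose catalytic subunits are EZH1 and EZH2, and it covers silent genes of other lineages, classically the Hox clusters and other developmental regulators. Both marks sit on the same residue, so 1 histone tail can carry only 1 of them. In regulatory T cells, EZH2 is known to be needed for a stable cell identity after activation.

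The lists held 31337, 27410 and 29132 H3K27ac peaks in controls 1 to 3, and 7507 and 43253 H3K27me3 peaks in controls 1 and 2. Bases under peaks came to 42.5, 41.5 and 42.2 Mb for H3K27ac and to 4.89 and 40.1 Mb for H3K27me3. H3K27me3 control 1 stood apart: its peaks had a −log10 p between 2.02 and 7.21 and 98.7% of them had a q value of 1, while the lists of H3K27ac started just above 5 and that of H3K27me3 control 2 at 9.02. Of its peaks, 95.9% overlapped H3K27me3 control 2, and 13.3% of the peaks of control 2 overlapped those of control 1. Measures of single lists are therefore given for both H3K27me3 lists separately. Several descriptions that pair the marks, such as peak classes, wide pairs, runs and windows, rest mainly or only on control 2. The minimum −log10 p thus differed between the H3K27me3 lists, on either side of that of H3K27ac, and its part in the comparison of the lists as deposited cannot be told apart from that of the mark.

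Single acetylated peaks were wider than single H3K27me3 peaks. The median width was 811, 846 and 820 bp in the 3 H3K27ac lists and 510 and 564 bp in the 2 H3K27me3 lists. All 3 H3K27ac lists lay above both H3K27me3 lists, with means of 826 ± 18.2 bp (SD, n = 3) and 537 ± 38.2 bp (SD, n = 2). The exact permutation test gave a two-sided p of 0.2, the smallest that 3 against 2 lists allow, and 0.32 after Benjamini-Hochberg adjustment over the 8 measures tested. The narrowest peaks hardly separated the marks, at 232 to 246 bp for H3K27ac against 253 and 225 bp for H3K27me3, whereas the upper end did. The widest 10% of peaks began at 2932, 3275 and 3106 bp in the H3K27ac lists and at 1191 and 1993 bp in the H3K27me3 lists. Peaks of 5 kb or wider numbered 1061, 1319 and 1264 for H3K27ac, where they held 19.5%, 27.1% and 25.6% of all bases under peaks. For H3K27me3 there were 1 and 567, with 0.105% and 8.94% of the bases. At a −log10 p of at least 10 in every list, which leaves H3K27me3 control 1 empty, the mean of the H3K27ac medians was 1148 bp and H3K27me3 control 2 had 573 bp.

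Joining neighbouring peaks turned the order for H3K27me3 control 2 at gaps of 3 kb and more, and not for control 1. H3K27me3 peaks of control 2 often followed each other at short gaps. With peaks closer than 1 kb joined, the median widths were 1134, 1144 and 1122 bp for H3K27ac and 584 and 771 bp for H3K27me3, in the same order as before. Joining peaks closer than 3 kb raised the median width to 1387, 1397 and 1392 bp for H3K27ac, and to 818 and 2082 bp for H3K27me3. Joining those closer than 10 kb gave 1874, 1829 and 1769 bp against 1648 and 4519 bp. H3K27me3 control 2 was then above all 3 H3K27ac lists and control 1 below them, so the wider Polycomb stretches rest on that longer list. H3K27me3 controls 1 and 2 had 102 and 1423 stretches of 20 kb or more with peaks closer than 10 kb joined, and the H3K27ac lists had 1165, 1056 and 1070. Among the very longest the order differed again. Stretches of 100 kb or more numbered 47, 48 and 54 for H3K27ac, and 0 and 32 for H3K27me3. The longest with 5 or more peaks spanned 196, 290 and 292 kb in the H3K27ac lists and 64.4 and 207 kb in the H3K27me3 lists, so that H3K27me3 control 2 lay above 1 H3K27ac list and below the other 2.

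**Figure D1:**
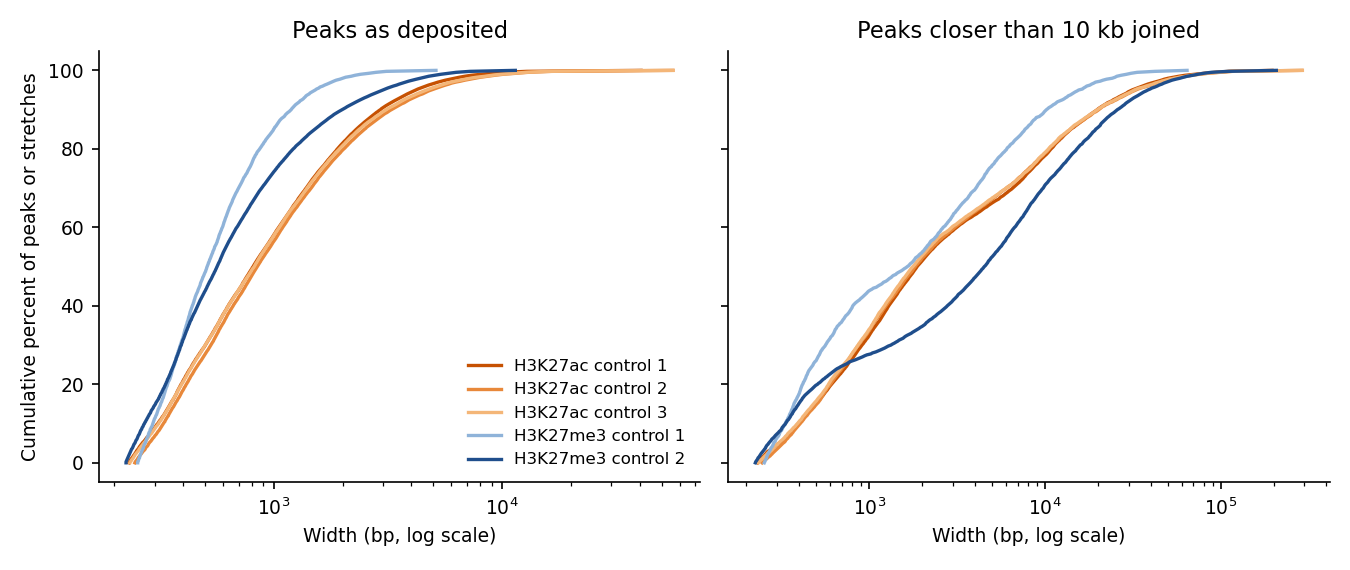
Cumulative percent of peaks (left, as deposited) or of joined stretches (right, peaks closer than 10 kb joined) against width in bp on a log axis, 1 line per control list. On the left the H3K27me3 lines lie to the left of the H3K27ac lines (medians of 510 and 564 bp against 811 to 846 bp); on the right H3K27me3 control 2 lies to their right, with a median of 4519 bp.

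The widest acetylated peaks found in all 3 lists were far longer than the median peak. The widest lay on chromosome 15 at 77672499 to 77726897 (mm39), with single peaks of 40636, 54259 and 54342 bp in controls 1 to 3, and the nearest H3K27me3 peak was 107 kb away. On chromosome 9 at 32609865 to 32665986 the widest peak measured 34316, 56002 and 56122 bp, and on chromosome 14 at 54415107 to 54467205 it measured 36003, 52099 and 51992 bp. Chromosome 11 held the other 2 of the 5 widest, at 117207053 to 117249178 and at 32481972 to 32536941. In control 1 each of these 5 regions was broken into shorter peaks than in controls 2 and 3, although the bases covered were close: 53419, 54259 and 54342 bases on chromosome 15. The acetylated region with the highest mean −log10 p was much shorter, on chromosome 11 at 59699354 to 59703965, with values of 466, 468 and 528. The next ones lay on chromosome 1 at 36799128 to 36813745 (353, 469 and 618) and on chromosome 2 at 174438923 to 174460449 (357, 455 and 531). Distances from the 5 widest and the 5 strongest acetylated regions to the nearest H3K27me3 peak ran from 16.6 to 287 kb.

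The widest H3K27me3 peaks found in both lists were about 10 kb long in control 2 and far shorter in control 1. On chromosome 5 at 30306482 to 30317905 the single peak of control 2 was 11424 bp wide, where the widest of control 1 had 1654 bp. On chromosome 11 at 95468712 to 95479882 the widths were 11167 and 1553 bp, on chromosome 15 at 74383347 to 74394080 they were 10734 and 1563 bp, and on chromosome 14 at 34262027 to 34271782 they were 9756 and 2541 bp. The highest mean −log10 p fell on chromosome 12 at 44374154 to 44379340, with 4.30 in control 1 and 94.9 in control 2, a peak 5187 bp wide in control 2. These values were not set against those of H3K27ac, since the −log10 p of each list depends on its own depth and background. The nearest acetylated peak to the widest H3K27me3 regions was 7.16 kb away on chromosome 5, and 70.6 to 120 kb away for the other 4.

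Summits of neighbouring H3K27me3 peaks lay closer together than acetylated ones in the longer list, that of control 2. The median distance between neighbouring summits was 5995, 6115 and 5721 bp in the H3K27ac lists, and 6821 and 2587 bp in the H3K27me3 lists. H3K27me3 control 2 was below all H3K27ac lists and control 1 above them, so that the marks overlapped (exact permutation p = 0.8, two-sided; Benjamini-Hochberg adjusted 0.914). With every list cut to its best 7507 peaks, which leaves H3K27me3 control 1 whole, they did not overlap, at 47920, 35904 and 34190 bp against 6821 and 27990 bp. Because a list with fewer peaks has wider spacing, the median was also divided by the mean spacing of the list. This ratio is lower the more peaks huddle together, but it still depends on list length. It was 0.0787, 0.0702 and 0.0698 for H3K27ac and 0.0218 and 0.0468 for H3K27me3, both H3K27me3 lists lying below all 3 of H3K27ac (exact permutation p = 0.2, two-sided; adjusted 0.32). On the lists of 7507 peaks the ratio was 0.151, 0.113 and 0.108 for H3K27ac and 0.0218 and 0.0885 for H3K27me3. With peaks closer than 3 kb joined, its means nearly met, at 0.186 for H3K27ac and 0.182 for H3K27me3, with 0.168 in control 2. Summits less than 5 kb from the next made up 45.5%, 45.2% and 46.9% of the H3K27ac pairs, and 46.2% and 68.4% of the H3K27me3 pairs. The long empty stretches were alike in the long lists: the largest summit-free distance was 11.5, 12.9 and 12.4 Mb for H3K27ac and 12.2 Mb for H3K27me3 control 2.

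**Figure D2:**
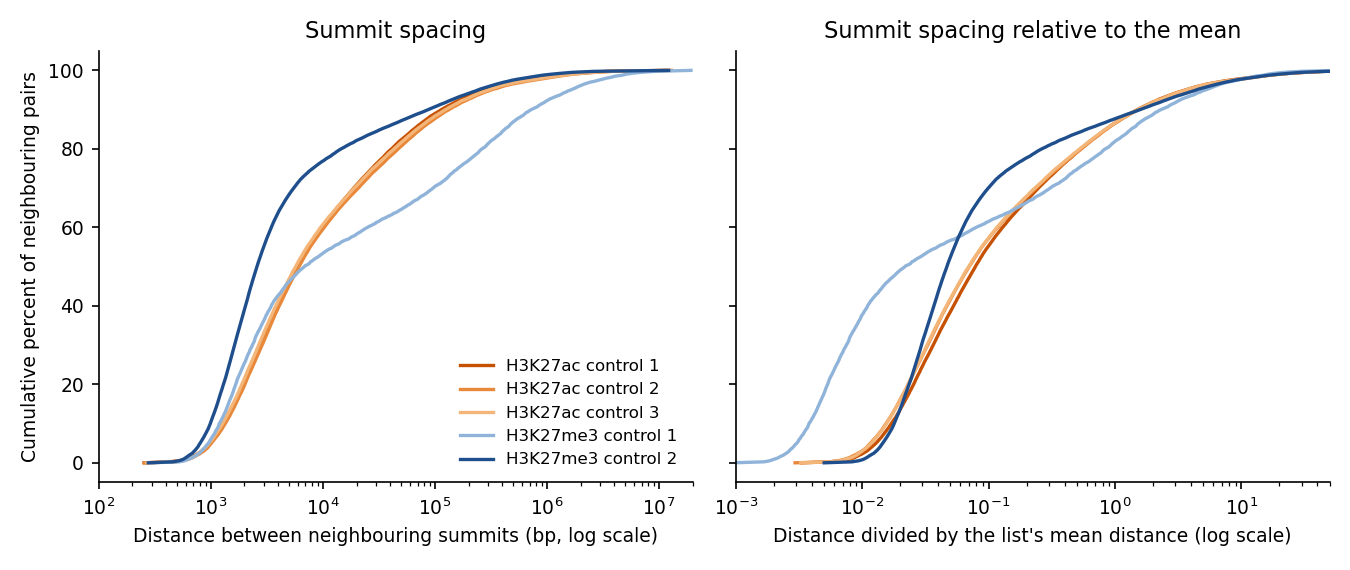
Cumulative percent of neighbouring summit pairs against their distance in bp (left) and against the distance divided by the mean distance of the list (right), both on log axes, 1 line per control list. H3K27me3 control 2 rises first on the left (median 2587 bp), and H3K27me3 control 1, with few peaks, rises first on the right (ratio of median to mean 0.0218).

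Polycomb peaks stood alone less often than acetylated ones in H3K27me3 control 2 and not in control 1. A chain is a series of peaks with gaps of up to 10 kb. Peaks in a chain of at least 2 came to 79.7%, 79.0% and 79.6% of the H3K27ac lists and to 77.5% and 92.6% of the H3K27me3 lists (exact permutation p = 0.8, two-sided; adjusted 0.914). Chains of 5 or more peaks held 48.2%, 48.3% and 49.4% of acetylated peaks, and 26.2% and 68.7% of H3K27me3 peaks. They numbered 1562, 1335 and 1408 for H3K27ac, and 287 and 2759 for H3K27me3. These chains were shorter and emptier for H3K27me3. Their median span was 26.5, 28.2 and 27.2 kb for H3K27ac against 16.9 and 20.3 kb, and peaks filled 46.6%, 51.2% and 50.7% of the acetylated chains against 26.1% and 38.6%. The chain with most acetylated peaks lay on chromosome 6 at 99139631 to 99431509 in control 3, with 90 peaks over 292 kb. In control 2 nearly the same stretch, from 99141609 to 99431628, held 84. In control 1 the leading chain was on chromosome 1 at 69572167 to 69732060, with 65 peaks. H3K27me3 control 2 had 2 leading chains of 87 peaks each, on chromosome 2 at 74467491 to 74654517 and on chromosome 11 at 95985236 to 96172038.

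At the scale of megabases both marks were strongly uneven. The variance-to-mean ratio of summits per 1 Mb window, which is 1 for points placed independently, was 20.9, 20.5 and 21.8 for H3K27ac and 9.97 and 31.6 for H3K27me3. The H3K27me3 lists lay on either side of the acetylated ones, in the order of their peak numbers (exact permutation p = 1, two-sided). With every list cut to its best 7507 peaks, the ratios drew together to 5.73, 6.56 and 6.77 for H3K27ac and 9.97 and 6.06 for H3K27me3. The densest 10% of windows held 38.7%, 40.8% and 40.8% of acetylated summits, and 54.4% and 41.4% of H3K27me3 summits. Of the 2368 windows, 679, 718 and 710 held no acetylated summit, and 1128 and 534 held no H3K27me3 summit. Once list length was set equal, clustering in 1 Mb windows thus separated the short H3K27me3 list from the others and not the marks. For chaining at 10 kb the lists as deposited overlapped and the equal lists did not, with 44.9%, 50.9% and 51.6% of acetylated peaks in chains against 77.5% and 64.2% of H3K27me3 peaks. The equal lists start at a −log10 p of 36.3, 29.4 and 35.6 for H3K27ac, and of 2.02 and 27.2 for H3K27me3. Threshold and mark cannot be told apart there. In the full lists with peaks closer than 3 kb joined, the mean share in chains was 48.1% for H3K27ac and 46.2% for H3K27me3. H3K27me3 control 2 alone had 55.9%, above the H3K27ac mean, so control 1 lay below it.

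The marks hardly ever shared a position. In chimera 2, which gave both marks, 12 of 31337 acetylated peaks and 16 of 43253 H3K27me3 peaks overlapped or touched a peak of the other mark. Within 1 kb, 0.112%, 0.106% and 0.134% of the peaks of the 3 H3K27ac lists had an H3K27me3 peak of control 2, while 4.01% of the autosomal length lay as close. As a reference within a mark, between 75.04% and 85.2% of the peaks of 1 H3K27ac list overlapped a peak of another.

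Acetylated peaks were rarer than the autosomal length would give up to 20 kb from H3K27me3 peaks, and more frequent within 100 kb. Within 10 kb of H3K27me3 control 2 lay 5.67%, 5.57% and 5.81% of acetylated peaks against 11.7% of the autosomal length, a mean ratio of 0.487. Within 20 kb the mean ratio was 0.712, within 50 kb it was 1.06, and within 100 kb it was 1.31, with 57.1%, 55.4% and 55.8% of acetylated peaks against 42.7% of the length. The short list of H3K27me3 control 1 gave the same course, with mean ratios of 0.357 within 10 kb and 1.37 within 100 kb. From the Polycomb side, peaks of control 2 had ratios of 0.559 within 10 kb and 1.75 within 100 kb of H3K27ac control 1. The ratio first reached 1 between 40 and 48 kb for the 6 pairings taken from H3K27ac, and between 21 and 24 kb for the 6 taken from H3K27me3. The autosomal length counts assembly gaps and repeats that can hold no peak, and what part they have in the ratios was not tested.

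Counting bases in place of peaks kept the low share within 10 kb and the high share within 100 kb. Joining peaks weakened the low share within 10 kb and, at the widest joining gap, turned it. Of the bases under acetylated peaks, a mean of 3.69% lay within 10 kb and 53.6% within 100 kb of H3K27me3 control 2, at mean ratios of 0.316 and 1.26. Within 50 kb the mean ratio by bases was 0.943, still below 1, where it was 1.06 by peaks. Against H3K27me3 control 1 these values were 0.945 and 1.04. With peaks closer than 1 kb joined into 1 stretch, the ratios within 10 kb were 0.620 from H3K27ac and 0.651 from H3K27me3 control 2, and with those closer than 3 kb joined they were 0.785 and 0.833. Joining at 10 kb, a gap equal to the distance counted, gave 1.09 and 1.18. A chain then counts once by its nearest edge, whatever its length.

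**Figure D3:**
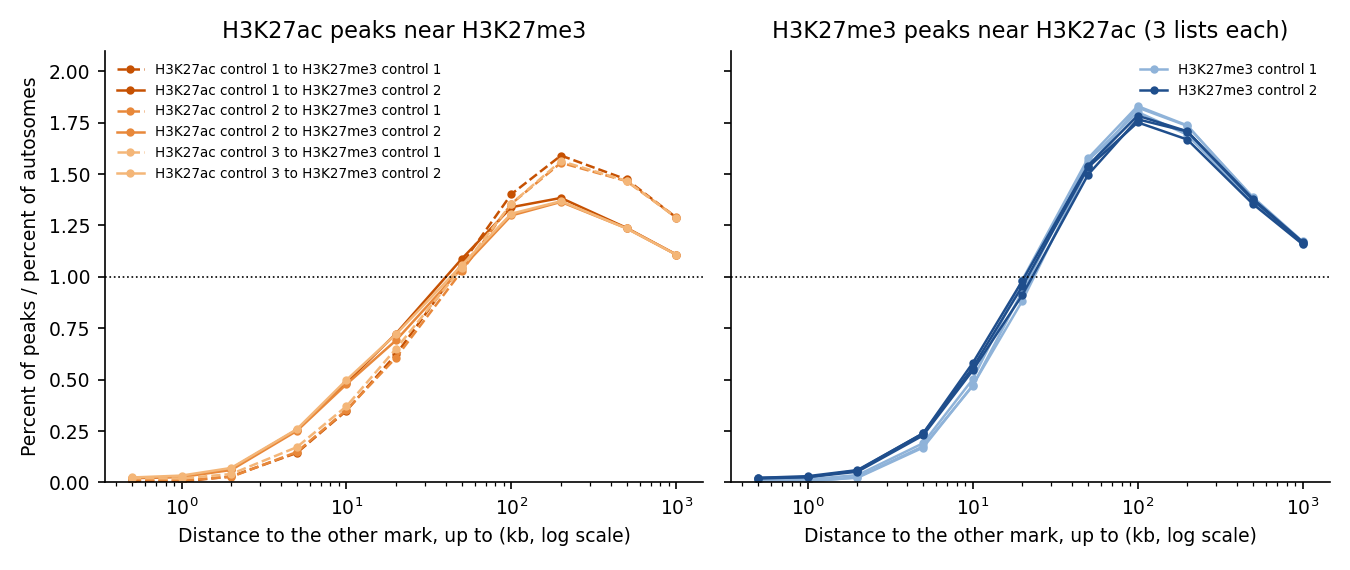
Percent of peaks within a given distance of the other mark, divided by the percent of autosomal length as close, against that distance in kb on a log axis, for each pair of control lists (left from H3K27ac, right from H3K27me3). The dotted line at 1 marks equal shares; every line lies below it at 20 kb or less and above it at 50 kb or more.

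The median distance to the other mark was longer for acetylated peaks than for H3K27me3 peaks. From the H3K27ac lists it was 83.4, 87.0 and 86.1 kb to H3K27me3 control 2, and 193, 200 and 199 kb to control 1, whose list is shorter. From H3K27me3 controls 1 and 2 to H3K27ac control 1 it was 52.6 and 54.5 kb. Averaged over the lists of the other mark, the medians were 141347 ± 2817 bp (SD, n = 3) for H3K27ac and 56750 ± 1304 bp (SD, n = 2) for H3K27me3 (exact permutation p = 0.2, two-sided; adjusted 0.32). All lists of a mark were measured against the same lists of the other mark, here and for the share within 10 kb below. The values are therefore not independent, and their SD leaves out the spread between target lists. Their p-values do not reflect library variation alone. Without H3K27me3 control 1 the difference in median distance fell from 84597 to 27849 bp, so that list set most of its size. Within 10 kb lay 3.45 ± 0.0777% of acetylated peaks (SD, n = 3) and 6.27 ± 0.684% of H3K27me3 peaks (SD, n = 2), again with p = 0.2 in the exact permutation test. The first value averages 1.21% to H3K27me3 control 1 and 5.69% to control 2, and the difference of -2.82 points was -1.06 without H3K27me3 control 1 and -4.57 without control 2. At a −log10 p of at least 10 this order turned, to 5.80% and 5.32%.

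Isolated acetylated peaks lay near peaks of H3K27me3 control 2 more often than those in chains. Of the peaks with no other acetylated peak within 10 kb, 15.8%, 15.4% and 16.9% in controls 1 to 3 had an H3K27me3 peak of control 2 that close. Of those in chains of 5 or more, 1.01%, 0.830% and 0.966% did. The 10 kb that defines lone peaks and chains is also the distance counted, so part of this contrast is built in. Within 100 kb of H3K27me3 control 2 lay 66.4%, 66.6% and 67.0% of lone acetylated peaks. For those in chains of 5 or more the shares were 50.0%, 46.6% and 47.2%. The wide peaks kept farther away as well: 1.602%, 1.52% and 1.82% of those of 5 kb or more lay within 10 kb, against 4.96%, 5.50% and 5.78% of those narrower than 500 bp. Peaks of H3K27me3 control 2 showed the same order more weakly within 10 kb of H3K27ac control 1, with 11.6% of lone peaks and 5.72% of peaks in chains of 5 or more. Within 100 kb their order turned, to 67.5% of lone peaks and 74.4% of peaks in such chains. Strength within the list differed by a few points in controls 2 and 3 and more in control 1. The median percentile of −log10 p within the list was 58.7, 52.9 and 53.8 for acetylated peaks within 10 kb of H3K27me3 control 2, and 49.5, 49.8 and 49.7 for those farther away.

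Wide peaks of both marks never came closer than 15.9 kb in chimera 2. Its lists held 1061 acetylated and 567 H3K27me3 peaks of 5 kb or more. The median distance from such an acetylated peak to the nearest such H3K27me3 peak was 1060 kb. What gap so few peaks would leave by their number alone was not tested. The closest pair of peaks of at least 5 kb was on chromosome 11, where an acetylated peak from 114762352 to 114768103 faced an H3K27me3 peak from 114739626 to 114746447. The next was on chromosome 15, with 20.5 kb between an acetylated peak from 99541186 to 99546485 and an H3K27me3 peak from 99566991 to 99573168. Both acetylated peaks had a counterpart in all 3 H3K27ac lists and both H3K27me3 peaks in both lists of that mark.

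Places where both marks were called at the same bases numbered 23 over all pairings of lists. At 5 of them all 3 H3K27ac lists overlapped H3K27me3 control 2. These lay on chromosome 18 at 55119812 to 55121232, with 774, 799 and 1065 shared bases in H3K27ac controls 1 to 3, and on chromosome 10 at 93476638 to 93479507, with 642, 642 and 780. The other 3 were on chromosome 3 at 82052047 to 82053145, with 653, 540 and 576 shared bases, on chromosome 8 at 85327908 to 85328850, with 521, 267 and 315, and on chromosome 9 at 75532187 to 75533709, with 89, 248 and 255. None of the 5 overlapped a peak of H3K27me3 control 1. The cells were measured in bulk, so that both marks in each cell and 1 mark in each of 2 groups of cells cannot be told apart.

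Along the chromosomes neighbouring peaks mostly carried the same mark. When the peaks of both lists of chimera 2 were put in order by summit, 89.6% of neighbours carried the same mark, and 7793 runs of a single mark resulted. Acetylated runs held a median of 4 peaks over 40.7 kb and Polycomb runs a median of 6 peaks over 46.0 kb. Runs of 20 peaks or more held 46.5% of the acetylated and 52.9% of the H3K27me3 peaks. Where the mark switched, the gap between the facing peaks had a median of 31.0 kb, against 2.71 kb between acetylated and 1.16 kb between H3K27me3 neighbours within runs. Only 8.21% of switches had a gap under 5 kb, and 38 of 7774 had one under 1 kb. With H3K27ac controls 2 and 3 in place of control 1, the share of neighbours of the same mark was 89.7% and 89.6%, and the median gap at a switch 33.8 and 32.1 kb. Against H3K27me3 control 1, H3K27ac control 1 gave 4305 runs and 89.0% of neighbours of the same mark. Polycomb runs then held a median of 2 peaks over 5.07 kb, and the median gap at a switch was 62.3 kb. A stretch called as several peaks raises the share of like neighbours and shortens the gaps within runs. In chimera 2 this share fell to 83.8%, 76.0% and 64.0% with peaks closer than 1, 3 and 10 kb joined. The share that a random order would give was not computed.

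Since a run ends at the first peak of the other mark, acetylated runs hold no peak of H3K27me3 control 2 and Polycomb runs none of H3K27ac control 1 by construction. Only the counts of the other lists are given for the other mark. Among acetylated runs, the one with most peaks lay on chromosome 6 at 98582743 to 99643798, with 144, 154 and 171 peaks in H3K27ac controls 1 to 3 over 1.06 Mb. Chromosome 7 followed at 75020826 to 75889148, with 115, 114 and 124 peaks, and chromosome 15 at 61279374 to 64186056, with 104, 91 and 108. The Polycomb run with most peaks lay on chromosome 15 at 102636513 to 103249434, with 30 and 185 H3K27me3 peaks in controls 1 and 2 and 0 and 1 acetylated peaks in H3K27ac controls 2 and 3. The next were on chromosome 2 at 73748006 to 74890316, with 11 and 143 H3K27me3 peaks and 1 and 2 acetylated peaks in H3K27ac controls 2 and 3, and on chromosome 11 at 95985236 to 96309607, with 19 and 139 and no acetylated peak in H3K27ac controls 2 and 3. Chromosome 9 at 42789185 to 43846122 had 20 and 120, and chromosome 6 at 51580435 to 52304034 had 27 and 104. In the RefSeq gene table of GRCm38.p6 the Hoxa, Hoxb, Hoxc and Hoxd genes, which pattern the body axis, are on chromosomes 6, 11, 15 and 2. These are the chromosomes of 4 of the 5 runs, but positions in that build were not used. Whether the runs hold the Hox genes was not tested. In H3K27me3 control 2, chromosomes 2 and 11 had the most peaks of all chromosomes compared, 4242 and 3386, and chromosomes 6 and 15 had 2291 and 1837. How many such runs would fall on these chromosomes by peak number alone was not tested.

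The longest runs were of another kind, sparse peaks across wide stretches with little of either mark. The longest Polycomb run in chimera 2 spanned 10.6 Mb of chromosome 14, from 87805309 to 98408614, with 4 peaks. H3K27ac controls 2 and 3, which did not set the run, had no peak there either. The longest acetylated run spanned 6.27 Mb of chromosome 1, from 24716702 to 30989697, with 6, 4 and 5 peaks in controls 1 to 3. Peaks filled 0.0537% and 0.126% of these runs.

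At the scale of 1 Mb the marks were often found in the same windows. In chimera 2, 1584 of 2368 windows (66.9%) held summits of both marks, 105 held H3K27ac alone, 250 H3K27me3 alone and 429 neither. H3K27me3 was thus present in 93.8% of the windows with H3K27ac and in 77.4% of all windows. Across windows the numbers of summits had a Spearman correlation of 0.663 and a Pearson correlation of 0.394, which are descriptive, since neighbouring windows are not independent and share gene density, base composition and mappability. In 10 kb windows of the same lists the Spearman correlation was -0.0552. Of all 2368 windows, 243 held at least 50 H3K27me3 summits. Of the 240 windows with at least 37 acetylated summits, 54 did, a larger share than among all windows. With H3K27me3 control 1 in place of control 2, 1150 windows (48.6%) held both marks, 539 H3K27ac alone and 90 H3K27me3 alone. H3K27me3 was then present in 68.1% of the windows with H3K27ac and in 52.4% of all windows, and the Spearman correlation was 0.567.

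**Figure D4:**
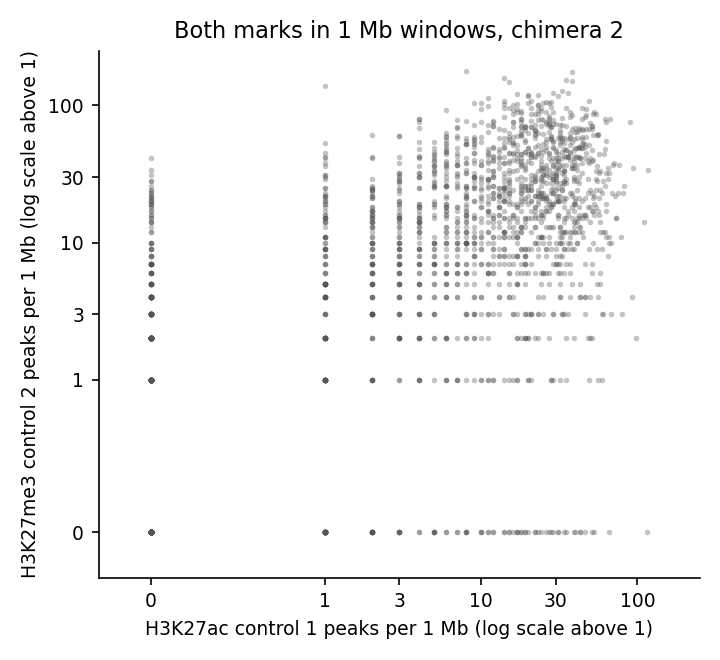
Number of H3K27me3 control 2 summits against number of H3K27ac control 1 summits in each of 2368 windows of 1 Mb, both axes logarithmic above 1 and including 0; 1 point per window. Most windows (1584) lie off both axes, and few hold only 1 mark (105 H3K27ac alone, 250 H3K27me3 alone).

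The balance of the marks differed between chromosomes. H3K27me3 control 2 had 1.02 ± 0.0532 peaks per acetylated peak on chromosome 10 and 1.13 ± 0.0487 on chromosome 17, the lowest ratios (SD over the 3 H3K27ac lists, n = 3). The highest were 2.00 ± 0.201 on chromosome 13, 1.96 ± 0.130 on chromosome 2 and 1.81 ± 0.130 on chromosome 18 (SD, n = 3). For each of the 3 H3K27ac lists the ratio on chromosomes 13 and 2 was above that on chromosome 10. H3K27me3 control 1, set against the same H3K27ac lists, also had its highest ratio on chromosome 2, at 0.356, and its lowest on chromosome 10, at 0.172. On chromosomes 13 and 18, high in control 2, it had 0.263 and 0.259, below its ratios on chromosomes 4 and 19 of 0.330 and 0.308. The Spearman correlation of both ratios over 19 chromosomes was 0.795. Both ratios share their denominators. Chromosome 11 was the densest in both marks, with 20.2 ± 1.2 acetylated peaks per Mb (SD, n = 3) and 5.93 and 28.5 H3K27me3 peaks per Mb. Peaks per Mb rose with the number of protein-coding genes per Mb, taken as counts per chromosome from the GRCm38.p6 table: Spearman correlations over 19 chromosomes were 0.868, 0.826 and 0.816 for H3K27ac and 0.823 and 0.746 for H3K27me3, given as a description.

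**Figure D5:**
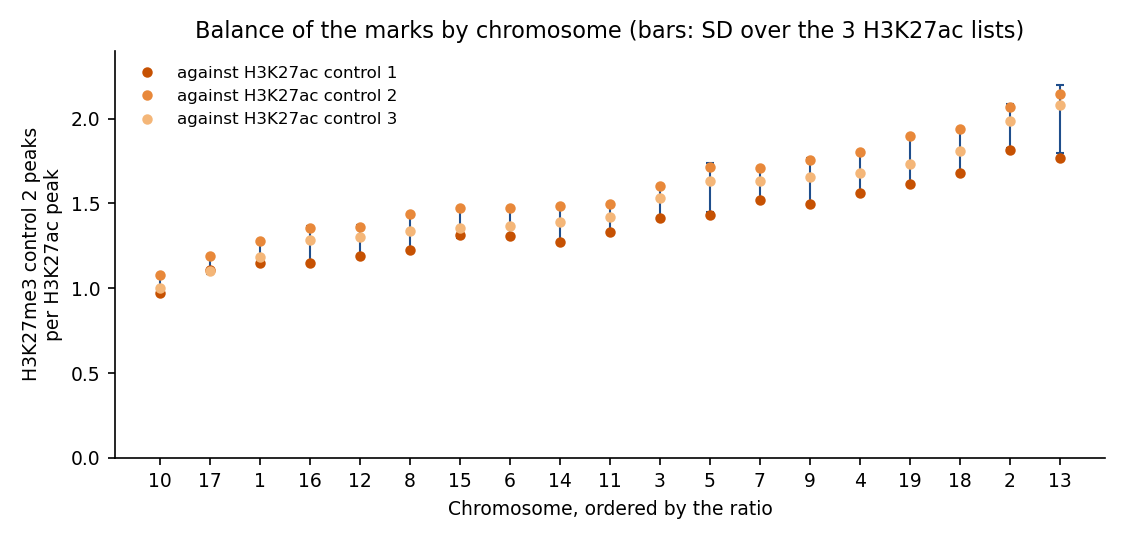
Peaks of H3K27me3 control 2 per H3K27ac peak on each of chromosomes 1 to 19, ordered by the mean ratio; points are the 3 H3K27ac lists and bars the SD over them. The ratio runs from 1.02 on chromosome 10 to 2.00 on chromosome 13.

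The state of named regulatory T cell, T cell, B cell, myeloid and developmental genes was not analysed here, because no annotation of mm39 was at hand and positions were not carried over from another build. For the same reason the label of the cells was not checked against marker genes. Foxp3 lies on X, outside the chromosomes compared.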

How the data were processed

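The members and measures were chosen with earlier results of these data known. The submitters' processing notes name HOMER 4.11, ChIPseeker 1.30.3, Bowtie2 2.2.4, MACS2 (version not given) and deepTools 3.5.1, and the build mm39. Settings, background library and treatment of duplicates are not given in the sources used here. The authors deposited a separate peak list for every library, per the labels. Each holds positions and the summit offset, the authors' score (10 times the −log10 p with decimals dropped, in nearly all peaks), the deposited fold enrichment as a ratio, and the authors' p and q values as −log10. Read depth is not stated in the lists, and a list gives presence and length of enrichment.

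Peaks on chromosomes 1 to 19 were used as deposited, with coordinates counted from 1. Python 3.11.15, NumPy 2.4.6, pandas 2.3.3, SciPy 1.17.1 and matplotlib 3.10.9 were used. The −log10 p served only to rank or filter peaks within a list and to choose regions. Distances ran edge to edge, with 0 for peaks that overlap by 1 bp or touch, and the autosomal length was that from the first to the last peak of a chromosome (2391 Mb in all). Measures were computed per list and compared through the difference of the group means in an exact permutation test (two-sided), which cannot pass 0.05 with 10 groupings, so no difference could be called. The labels number the chimeras but do not say whether each was 1 animal. A p-value here thus reflects only how these libraries vary, which may be technical. The exceptions are the distance to the other mark and the share within 10 kb, for which lists of a mark share their targets. The measures were checked on simulated peaks. Named regions were the 5 widest and the 5 with the highest mean −log10 p of each mark among those in every list, the 5 longest runs and the 5 closest pairs of wide peaks; runs and chains with most peaks and overlapping places were added after their values were seen. The planned description of promoters, gene loci, gene lists and sequence was not made, as fixed for the case of no mm39 reference.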

Additional observations from a re-analysis of the deposited data

Results flagged for a closer look

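Chromosome X lies outside the comparison of chromosomes 1 to 19, and all 5 lists hold peaks there, above the limit that a count of 0 allows. H3K27ac controls 1 to 3 had 675, 576 and 616 peaks on X, and H3K27me3 controls 1 and 2 had 5 and 692. The 3 H3K27ac lists were close to each other, while the H3K27me3 lists differed far more on X than on the autosomes, where they had 7507 and 43253 peaks.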

How the results depend on the processing

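No paired analysis was possible because only chimera 2 gave both marks, and lists with the same replicate number come from different chimeras. Joining at 3 and 10 kb, a common minimum −log10 p and counting by bases were chosen after seeing the data; alternatives on promoters, loci and sequence were not run for want of an mm39 reference. Differences are H3K27ac minus H3K27me3 means, and the cause of changes was not tested beyond the list length or joining that a setting alters by construction. The median distance to the other mark kept its direction under all alternatives run, and so did the share in the densest windows, which rests on H3K27me3 control 1: its difference of -7.79 points was -1.29 without that list and -0.684 at the common minimum −log10 p, and on equal lists H3K27ac controls 2 and 3 (44.3% and 44.9%) were above H3K27me3 control 2 (43.15%).

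Median width turned to -58 bp joined at 3 kb and -1260 bp at 10 kb. Median spacing turned to -9294 bp in the better 50% of each list, and to -2399, -36851 and -82405 bp joined at 1, 3 and 10 kb. The difference in its ratio to the mean fell from 0.0386 to 0.00449 joined at 3 kb and turned to -0.0459 at 10 kb. The variance-to-mean difference, 0.266 as reported, was -1.67 with equal lists, -0.453 in the better 50% and -15.0 at a −log10 p of at least 10. The share in chains turned to 1.87 points joined at 3 kb, where H3K27me3 control 2 alone (55.9%) stayed above the H3K27ac mean (48.1%). The share within 10 kb of the other mark turned to 0.479 points at the minimum −log10 p. Without 1 library, spacing ran from -877.5 (without H3K27me3 control 2) to 3356.5 bp (without H3K27me3 control 1). Likewise the share in chains ran from 1.92 to -13.15 points, and the variance-to-mean difference from 11.1 to -10.5, with -0.0966 without H3K27ac control 3.

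For H3K27ac within 10 and 100 kb of H3K27me3 control 2, then H3K27me3 control 2 within 10 and 100 kb of H3K27ac control 1, the ratios to the autosomal length were 0.256, 1.14, 0.272 and 1.51 with equal lists and 0.456, 1.25, 0.486 and 1.70 in the better 50%. Joining gave 0.620, 1.37, 0.651 and 1.77 at 1 kb, 0.785, 1.44, 0.833 and 1.76 at 3 kb, and 1.09, 1.52, 1.18 and 1.72 at 10 kb. With X they were 0.502, 1.35, 0.577 and 1.80, by bases 0.316, 1.26, 0.415 and 1.69, and at the minimum −log10 p 0.503, 1.298, 0.526 and 1.74. Neighbours of the same mark fell to 76.8% with equal lists (3502 runs), 84.7% in the better 50%, 83.8%, 76.0% and 64.0% joined at 1, 3 and 10 kb, 89.5% with X and 88.9% at the minimum −log10 p.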

Other observations

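Acetylated peaks had their summit nearer the middle than H3K27me3 peaks did. Over all peaks, the summit lay in the middle one of 3 equal parts of the peak in 46.9%, 47.2% and 48.3% of H3K27ac peaks, and in 41.6% and 44.0% of H3K27me3 peaks. Among peaks of 2 kb or wider the shares were 50.7%, 50.6% and 50.4% for H3K27ac, and 34.2% and 42.0% for H3K27me3. Only 155 peaks of H3K27me3 control 1 were that wide. Width and −log10 p went together in each list, with Spearman correlations across peaks of 0.756, 0.774 and 0.780 for H3K27ac and 0.351 and 0.605 for H3K27me3, as a description. Along the chromosomes, which in the mouse have the centromere at their start, the first 10% of the length held 8.35%, 8.06% and 8.16% of acetylated peaks and 4.94% and 5.89% of H3K27me3 peaks. The last 10% held 13.6%, 13.6% and 13.8%, against 16.5% and 14.8%.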
